A study of Mus musculus with 20 samples.

Results

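The genes described here are 8 Toll-like receptors (Tlr1, Tlr2, Tlr3, Tlr4, Tlr7, Tlr8, Tlr9 and Tlr13), the receptor chaperone Unc93b1 and the signalling adaptor Myd88, 10 of the 34291 genes counted in mouse heart. They were chosen by their measured difference between rapamycin-fed and control-fed mice, together with a split of the receptors by where they work in the cell. Their differences between the diets are therefore given as a description, without a test. The tested hearts came from 10 C57BL/6 mice fed 14 ppm rapamycin, an inhibitor of the kinase mTOR, from 24 months of age for 3 months. The other 10 hearts came from C57BL/6 mice given a control diet over the same months, so both groups were 27 months old. Each heart gave 1 RNA library, called by diet and label number, such as control 19. Whole frozen hearts were powdered, so every value is a mixture over all cells of the organ, and fewer cells of a type cannot be told apart from less RNA per cell. The sex of the mice is not given in the sources used here.

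Toll-like receptors recognise molecules of microbes and of damaged cells. Tlr1, Tlr2 and Tlr4 sit at the cell surface and bind lipids and lipoproteins, whereas Tlr3, Tlr7, Tlr8, Tlr9 and Tlr13 sit in endosomes and bind nucleic acids. Unc93b1 is a membrane protein that escorts the endosomal receptors from the endoplasmic reticulum to the endosome. Myd88 links all of these receptors except Tlr3 to the kinases that activate NF-kB and interferon regulatory factors. In the heart the receptors are known mainly from resident macrophages, with Tlr3 and Tlr4 also known from endothelial cells, fibroblasts and cardiomyocytes.

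The counts summed to 8525162 to 12458309 per library with rapamycin and 7039514 to 10594335 in controls. Levels are given as CPM scaled by TMM library sizes (normalised CPM). Markers of lung summed to 24320 CPM in control 19, 398 CPM in control 1 and 158 CPM in rapamycin 15, against a median of 1.65 CPM over the 20 libraries. Control 19 also had the highest sum of neutrophil markers (2536 CPM, median of all libraries 9.11 CPM) and the lowest of cardiomyocyte markers (13010 CPM, median 41100 CPM). Results are therefore given with and without control 19. Markers of liver were highest in rapamycin 9 (391 CPM) and those of thymus in rapamycin 8 (26.4 CPM).

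All 10 genes averaged lower in hearts of rapamycin-fed mice than in control hearts. Their log2 folds ran between -1.09 for Tlr7 and -0.18 for Tlr3, with a median of -0.63, while the median over all 13940 genes tested was -0.01 and 52.5% of them were below 0. Without control 19 all 10 were again below 0, each by less, with a median of -0.57. Of the 10 genes, 5 passed an adjusted p of 0.05 in the edgeR fit of all genes (Tlr7, Tlr8, Unc93b1, Tlr1 and Tlr2), where 3.36% of all genes passed in either direction, 2.68% lower and 0.689% higher. Without control 19 there were 4, since Tlr8 no longer passed, beside 3.38% of all genes. Because these genes were picked on the same contrast, nothing is read from that count. In none of the 10 did the groups separate completely. Among all genes, 0.0574% lay lower in every rapamycin library than in every control library and 0.0143% lay higher.

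Tlr7, an endosomal receptor for single-stranded RNA, differed most. Its level in rapamycin hearts had a lowest value of 4.54, a median of 5.85 and a highest value of 9.75 CPM, against 8.43, 11.9 and 22.8 CPM in control hearts. The groups overlapped through 1 library, rapamycin 5, and the other 9 rapamycin hearts lay below the lowest control. The means were 6.08 ± 1.52 CPM with rapamycin and 13.1 ± 4.15 CPM in controls (SD, n = 10 each), a log2 fold of -1.09 ± 0.17 (SE). The highest control was control 19, with the next at 15.4 CPM, and without it the fold was -0.96 ± 0.14. In reads this was 40 to 129 counts of Tlr7 per rapamycin library and 87 to 188 per control library.

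Tlr8, a close relative of Tlr7 whose human counterpart binds breakdown products of RNA, was about as different but scarcer and more variable. Rapamycin hearts had a lowest value of 1.51, a median of 2.30 and a highest value of 4.84 CPM, against 2.11, 4.04 and 9.71 CPM in control hearts. Only 3 rapamycin hearts lay below the lowest control, although 9 lay below the control median. The means were 2.59 ± 0.97 CPM with rapamycin and 5.02 ± 2.40 CPM in controls (SD, n = 10 each), a log2 fold of -0.93 ± 0.26, or -0.77 ± 0.23 without control 19.

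Tlr13, the mouse endosomal receptor for a sequence of bacterial ribosomal RNA, changed most in log2 fold when control 19 was left out. It reached 33.7 CPM in control 19, 4.43 times the median of the other controls, whose highest value was 10.9 CPM. Rapamycin hearts had a lowest value of 3.49, a median of 4.58 and a highest value of 9.30 CPM, against 4.80, 8.60 and 33.7 CPM in control hearts. The groups overlapped, with 5 rapamycin hearts below the lowest control. The log2 fold was -1.03 ± 0.30 with all libraries and -0.63 ± 0.19 without control 19.

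Tlr9, the endosomal receptor for unmethylated CpG DNA, was the scarcest of the 10, with 8 to 27 counts per rapamycin library and 8 to 43 per control library. Its level had a lowest value of 0.847, a median of 1.23 and a highest value of 2.78 CPM in rapamycin hearts, against 0.803, 2.12 and 4.48 CPM in control hearts. The groups overlapped over most of their range, and the lowest of all 20 libraries was a control. The log2 fold of -0.60 ± 0.27 changed little without control 19 (-0.57).

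Tlr3, the endosomal receptor for double-stranded RNA and the only one here that does not use Myd88, stood nearest to 0. Rapamycin hearts had a lowest value of 16.8, a median of 18.3 and a highest value of 26.0 CPM, against 16.3, 21.4 and 27.9 CPM in control hearts. The lowest library was again a control, and the means of 19.1 ± 2.91 CPM with rapamycin and 21.7 ± 2.89 CPM in controls lay less than 1 SD apart (n = 10 each). The log2 fold was -0.18 ± 0.09, or -0.12 ± 0.08 without control 19. In the GENCODE annotation of GRCm38 an exon of Tlr3 lies opposite an exon of Gm45542, and whether counting used strand is not given in the sources used here.

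Unc93b1, the chaperone on which all 5 endosomal receptors depend, was lower by less than Tlr7 but with a small error. Its level in rapamycin hearts had a lowest value of 28.8, a median of 34.5 and a highest value of 43.3 CPM, against 38.3, 53.7 and 69.6 CPM in control hearts. Of the 10 rapamycin hearts 7 lay below the lowest control, and of the 10 controls 8 lay above the highest rapamycin heart. The means were 35.1 ± 4.14 CPM with rapamycin and 53.9 ± 10.6 CPM in controls (SD, n = 10 each), a log2 fold of -0.62 ± 0.10, or -0.56 ± 0.09 without control 19.

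**Figure D1:**
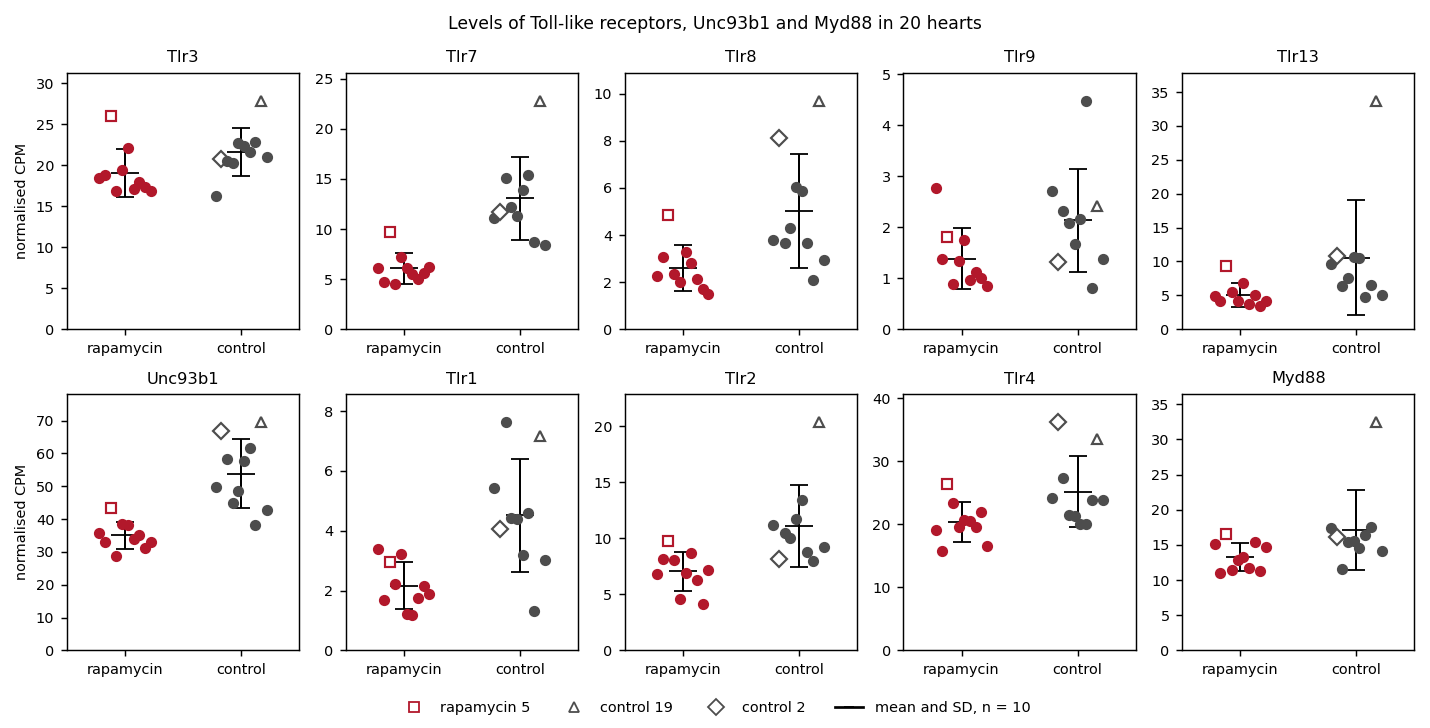
Normalised CPM (vertical axis) of the 10 genes in each of 10 rapamycin and 10 control hearts, 1 point per library, with the mean and SD of each group. Rapamycin 5, control 19 and control 2 have open symbols, and rapamycin 5 is the highest rapamycin heart for 8 of the 10 genes, while control 19 is the highest control for 7.

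Tlr1, which pairs with Tlr2 to bind triacylated lipoproteins, had the largest difference of the surface receptors. Rapamycin hearts had a lowest value of 1.18, a median of 2.01 and a highest value of 3.39 CPM, against 1.31, 4.40 and 7.64 CPM in control hearts. All 10 rapamycin hearts lay below the control median, but control 17, with 1.31 CPM, lay below 8 of them. The log2 fold was -1.05 ± 0.25, or -0.95 ± 0.25 without control 19. Counts of Tlr1 were 11 to 39 per rapamycin library and 13 to 79 per control library.

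Tlr2, the common partner of Tlr1 and Tlr6, had a lowest value of 4.17, a median of 7.01 and a highest value of 9.75 CPM in rapamycin hearts, against 7.93, 10.3 and 20.4 CPM in control hearts. The 2 groups overlapped between 7.93 and 9.75 CPM, and 6 rapamycin hearts lay below that range. The highest control was control 19, and the log2 fold was -0.65 ± 0.17 with it and -0.50 ± 0.14 without it.

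Tlr4, the receptor for bacterial lipopolysaccharide, had a lowest value of 15.7, a median of 20.1 and a highest value of 26.4 CPM in rapamycin hearts, against 20.02, 23.9 and 36.3 CPM in control hearts. The groups overlapped between 20.02 and 26.4 CPM, and 3 controls lay above every rapamycin heart. The log2 fold was -0.31 ± 0.11, or -0.25 ± 0.11 without control 19.

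Myd88, the adaptor below every receptor listed here except Tlr3, had a lowest value of 10.97, a median of 13.02 and a highest value of 16.6 CPM in rapamycin hearts, against 11.5, 15.9 and 32.5 CPM in control hearts. Apart from control 19, at 32.5 CPM, the controls ended at 17.6 CPM, close to the highest rapamycin heart. The log2 fold was -0.36 ± 0.14 with control 19 and -0.20 ± 0.09 without it.

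**Figure D2:**
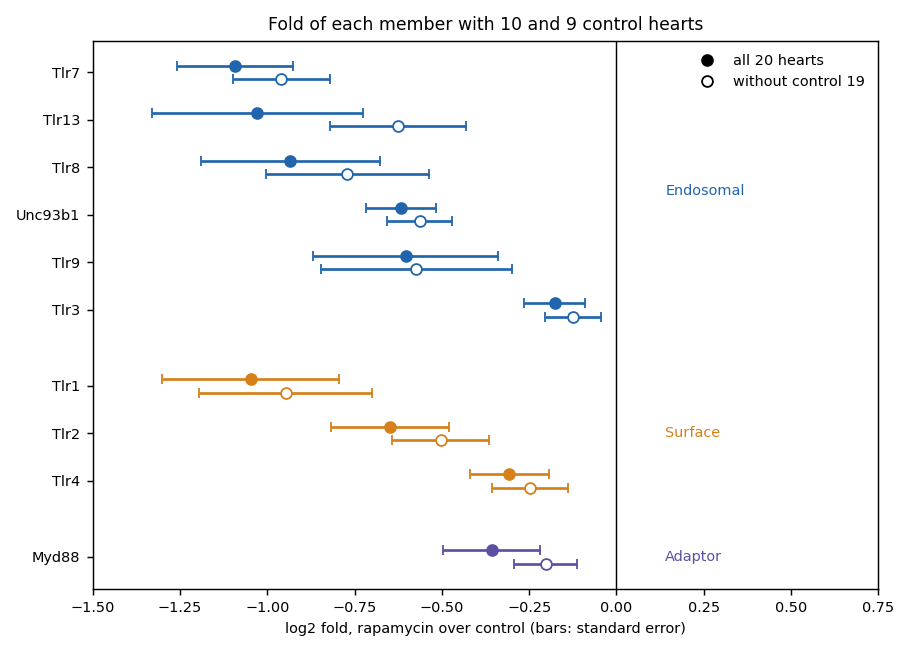
Log2 fold of rapamycin over control (horizontal axis, bars are standard errors) of each gene, from the fit with all 20 hearts (filled) and without control 19 (open). All points lie below 0, and the 2 settings differ most for Tlr13, with -1.03 against -0.63.

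The endosomal and the surface receptors differed from control by similar amounts, and each class held both large and small folds. The 6 endosomal genes, Unc93b1 included, had a median log2 fold of -0.78, or -0.60 without control 19, and 3 of them passed the threshold, or 2 without control 19. The 3 surface receptors had a median of -0.65, or -0.50 without control 19, and 2 of them passed in both settings. Among all genes 3.36% passed, or 3.38% without control 19, and nothing is read from these counts either. Summed over the 5 endosomal receptors, the level was 34.3 ± 6.95 CPM in rapamycin hearts and 52.5 ± 16.4 CPM in control hearts (SD, n = 10 each), or 47.6 ± 5.56 CPM in the 9 controls other than control 19. Summed over the 3 surface receptors it was 29.6 ± 4.11 CPM with rapamycin and 40.8 ± 8.68 CPM in controls, or 38.6 ± 5.30 CPM without control 19. The ratio of the endosomal to the surface sum within a heart was 1.16 ± 0.16 with rapamycin (range 0.895 to 1.39) and 1.28 ± 0.20 in controls (range 1.06 to 1.58). These ratios overlapped over most of their range, and 3 rapamycin hearts lay below the lowest control. Unc93b1 stood at 1.04 ± 0.10 times the summed endosomal receptors in rapamycin hearts and at 1.06 ± 0.17 times in control hearts, and the groups overlapped.

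**Figure D3:**
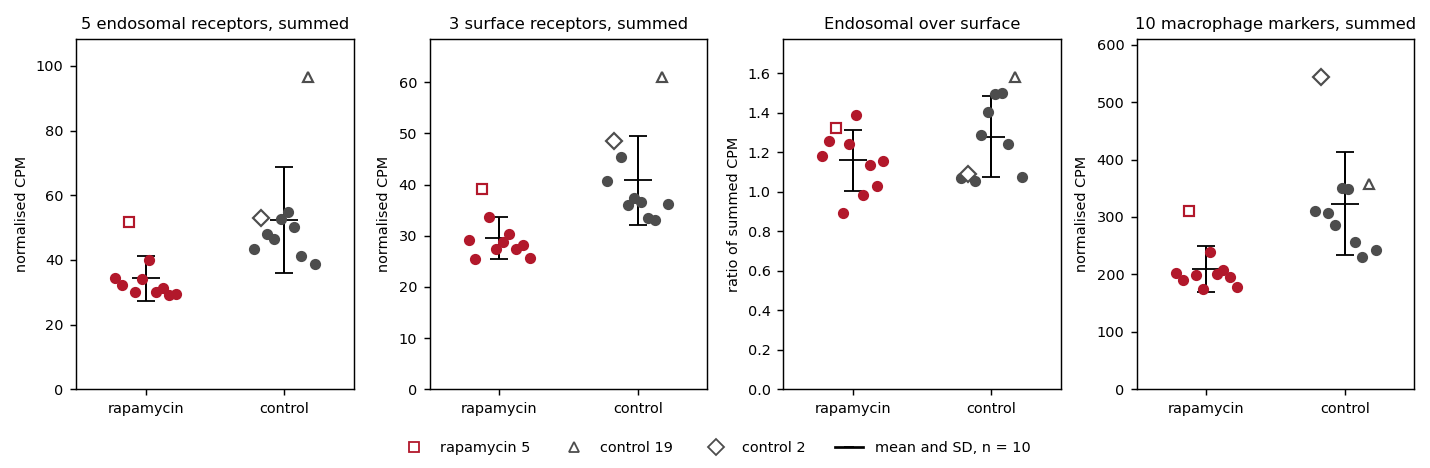
Summed normalised CPM of the 5 endosomal receptors, the 3 surface receptors and 10 macrophage markers, and the ratio of endosomal to surface receptors within each heart, by diet, with mean and SD. In each sum 8 rapamycin hearts lie below the lowest control, whereas the ratios of the groups overlap.

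Compared per kilobase of exon, the 10 genes stood in the same order in both diets. Unc93b1 led with 15.5 ± 1.83 CPM per kb in rapamycin hearts and 23.8 ± 4.66 in control hearts, followed by Myd88 with 6.79 CPM per kb in rapamycin hearts and 8.74 in control hearts. In rapamycin hearts Tlr3 (4.25 CPM per kb), Tlr4 (3.72), Tlr2 (2.34), Tlr7 (1.54), Tlr13 (1.26), Tlr8 (0.755), Tlr1 (0.694) and Tlr9 (0.399) came next. In control hearts the levels were 4.82 CPM per kb for Tlr3, 4.61 for Tlr4, 3.69 for Tlr2, 3.30 for Tlr7, 2.61 for Tlr13, 1.46 for Tlr8, 1.45 for Tlr1 and 0.614 for Tlr9. Unc93b1 exceeded Myd88, and Myd88 exceeded Tlr3, in all 20 hearts. Tlr8 and Tlr1 could not be ordered, since Tlr8 was the higher in 5 hearts of each diet. Tlr3 exceeded Tlr4 in 8 rapamycin and 7 control hearts, so their order too varied between animals. Tlr2 exceeded Tlr7 in 8 rapamycin and 7 control hearts and Tlr7 exceeded Tlr13 in 8 rapamycin and 9 control hearts, whereas Tlr13 exceeded Tlr8 in all 20. The X chromosome carries 3 of the 10 genes, Tlr7, Tlr8 and Tlr13, and these had 3 of the 4 largest differences. Since the labels give no sex, 4 genes of the Y chromosome were looked up (Ddx3y, Eif2s3y, Kdm5d and Uty). None had more than 2 counts in any of the 20 libraries, so these genes gave no sign of a male heart in either diet.

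Sequence upstream of the members is shown for 4 of them, Tlr8, Tlr13, Tlr3 and Myd88. Tlr8 and Tlr13 varied together between hearts. Their log2 folds were -0.93 and -1.03, or -0.77 and -0.63 without control 19. Tlr3 and Myd88 had small folds (-0.18 and -0.36). The windows run from 250 bases before to 50 bases after the RefSeq start of each gene in GRCm38.p6, on the gene's strand. Of the 10 genes 7 have one in the table used, and Tlr4, Tlr7 and Unc93b1 do not. Capitals mark the core GAGGAA of sites of PU.1, a transcription factor of myeloid cells, in Tlr8 (there on the opposite strand) and Tlr13, and a pair of GAAA runs separated by any 2 bases, the spacing of interferon response elements, in Myd88. The windows are chrX:167264280-167264579 on the minus strand for Tlr8, chrX:106143025-106143324 on the plus strand for Tlr13, chr8:45410331-45410630 on the minus strand for Tlr3 and chr9:119339969-119340268 on the minus strand for Myd88.
Tlr8: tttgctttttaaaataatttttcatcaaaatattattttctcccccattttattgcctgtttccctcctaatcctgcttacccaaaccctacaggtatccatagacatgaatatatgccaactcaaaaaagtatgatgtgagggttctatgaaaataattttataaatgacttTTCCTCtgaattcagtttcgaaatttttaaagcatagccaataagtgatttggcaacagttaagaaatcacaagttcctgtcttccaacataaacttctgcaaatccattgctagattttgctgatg
Tlr13: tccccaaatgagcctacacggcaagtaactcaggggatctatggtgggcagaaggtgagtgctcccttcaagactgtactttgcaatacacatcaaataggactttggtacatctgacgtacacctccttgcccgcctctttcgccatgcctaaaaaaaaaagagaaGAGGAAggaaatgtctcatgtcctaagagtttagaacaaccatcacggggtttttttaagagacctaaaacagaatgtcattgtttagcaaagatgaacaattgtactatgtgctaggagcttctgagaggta
Tlr3: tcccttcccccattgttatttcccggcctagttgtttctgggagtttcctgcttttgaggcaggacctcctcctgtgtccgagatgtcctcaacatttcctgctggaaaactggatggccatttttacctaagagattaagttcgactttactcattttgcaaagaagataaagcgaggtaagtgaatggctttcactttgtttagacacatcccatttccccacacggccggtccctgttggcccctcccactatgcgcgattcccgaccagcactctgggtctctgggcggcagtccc
Myd88: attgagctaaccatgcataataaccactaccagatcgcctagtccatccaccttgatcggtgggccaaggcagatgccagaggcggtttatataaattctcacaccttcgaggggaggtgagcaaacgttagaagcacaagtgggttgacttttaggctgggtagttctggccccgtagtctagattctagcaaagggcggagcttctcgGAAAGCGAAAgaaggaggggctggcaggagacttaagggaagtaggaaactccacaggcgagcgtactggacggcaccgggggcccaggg
Both strands were searched, and the motifs do not overlap each other in these windows. GAGGAA occurs in the windows of 4 genes, namely Tlr8, Tlr9, Tlr13 and the first of 2 starts of Tlr1, and 28.3% of all 32851 windows of this length hold it. It begins 77 bases before the start of Tlr8 and 83 bases before that of Tlr13, and it is not in the windows of Tlr3, Tlr2 and Myd88. The second start of Tlr1 lacks it too. Tlr2, without it, had a log2 fold of -0.65, and Tlr9, with it, had one of -0.60. Since the windows shown were picked by fold, no link between motif and fold is read from them. The spaced pair of GAAA runs occurs only in Myd88, where it begins 40 bases before the start, and 3.44% of all windows hold it. A match is a run of letters, and no binding was measured.

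Macrophage markers were lower in the same hearts. Of 10 such markers all 10 had folds below 0 (9 without control 19, where Cx3cr1 was at 0.03), with a median of -0.59, and 5 fell at an adjusted p under 0.05 (edgeR), or 6 without control 19. Over all genes 3.36% passed, or 3.38% without control 19. The marker lists too were chosen with earlier results of these data known, so nothing is read from their counts. Cd68, a lysosomal glycoprotein of macrophages, fell by 0.96 on the log2 scale (adjusted p = 0.0055, edgeR), and the mannose receptor Mrc1 by 0.78 (adjusted p = 0.0212). The summed markers stood at 209.7 ± 39.5 CPM in rapamycin hearts (range 174 to 310.2) and at 323 ± 89.9 CPM in control hearts (range 230.0 to 544). The highest rapamycin heart was again rapamycin 5, and the highest control was control 2. T and NK cell markers summed to 10.7 ± 6.80 CPM with rapamycin and 28.2 ± 16.4 CPM in controls, and 2 of 6 tested markers passed as lower, or 1 without control 19. Both of the neutrophil markers tested also passed as lower, and neither did without control 19. All 9 listed neutrophil markers summed to 9.02 ± 3.602 CPM with rapamycin and 278 ± 794 CPM in controls (27.1 ± 34.4 without control 19). B and plasma cell markers summed to 35.7 ± 28.0 CPM with rapamycin and 150.5 ± 148 CPM in controls, with none of 7 passing. Cardiomyocyte markers stood higher, at 45660 ± 4539 CPM with rapamycin and 35650 ± 8931 CPM in controls (38170 ± 4308 without control 19), with none of 8 passing, or 1, Myl2, without control 19. Endothelial markers were at 1083 ± 82.0 CPM with rapamycin and 1090 ± 138 CPM in controls, and those of fibroblasts at 3121 ± 510 CPM with rapamycin and 3245 ± 472 CPM in controls, with none passing in either list. The part of these markers in the differences of the receptors was not tested.

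Set against the summed macrophage markers of the same heart, the genes differed from one another. Tlr7 was still lower, at 29.2 ± 5.72 CPM per 1000 CPM of macrophage markers with rapamycin and 41.8 ± 12.8 in controls, a log2 ratio of means of -0.52 that was -0.43 without control 19. Tlr1 (10.6 ± 4.26 with rapamycin and 14.3 ± 6.00 in controls) and Tlr8 (12.1 ± 2.68 with rapamycin and 15.1 ± 4.90 in controls) were lower too, with log2 ratios of -0.43 and -0.32, or -0.37 and -0.18 without control 19. For all 3 the groups overlapped widely, and no rapamycin heart lay below the lowest control ratio for Tlr7. Tlr13 went with them at -0.42 only through control 19, since the ratio was -0.07 without it.

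Unc93b1 was close to equal, at 169.7 ± 22.7 per 1000 with rapamycin and 171 ± 32.5 in controls, and so were Tlr9 (6.64 ± 2.76 with rapamycin and 7.05 ± 4.15 in controls) and Tlr2 (33.8 ± 7.59 with rapamycin and 35.6 ± 10.0 in controls). Their log2 ratios were -0.01, -0.09 and -0.07, or 0.01, -0.09 and 0.03 without control 19. Tlr3 stood higher relative to the markers, at 91.8 ± 8.42 per 1000 with rapamycin and 70.6 ± 17.7 in controls, a log2 ratio of 0.38. Tlr4 (98.0 ± 12.5 with rapamycin and 80.1 ± 15.7 in controls) and Myd88 (64.4 ± 10.5 with rapamycin and 55.3 ± 18.4 in controls) were also higher, at 0.29 and 0.22. Without control 19 the log2 ratios were 0.39 for Tlr3, 0.32 for Tlr4 and 0.33 for Myd88. The 5 endosomal receptors together gave 164 ± 14.6 with rapamycin and 167 ± 44.3 in controls, and the 3 surface receptors 142 ± 14.8 with rapamycin and 130.0 ± 24.4 in controls. Without control 19 the controls stood at 155.3 ± 27.1 for the endosomal and 125.5 ± 21.0 for the surface receptors. The log2 ratio of the endosomal receptors was thus -0.03 with control 19 and 0.08 without it. These ratios share their denominator, and control 2, which had the most macrophage markers, gave the lowest ratio of all hearts for Tlr3, Tlr7, Tlr9, Unc93b1, Tlr2 and Myd88.

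**Figure D4:**
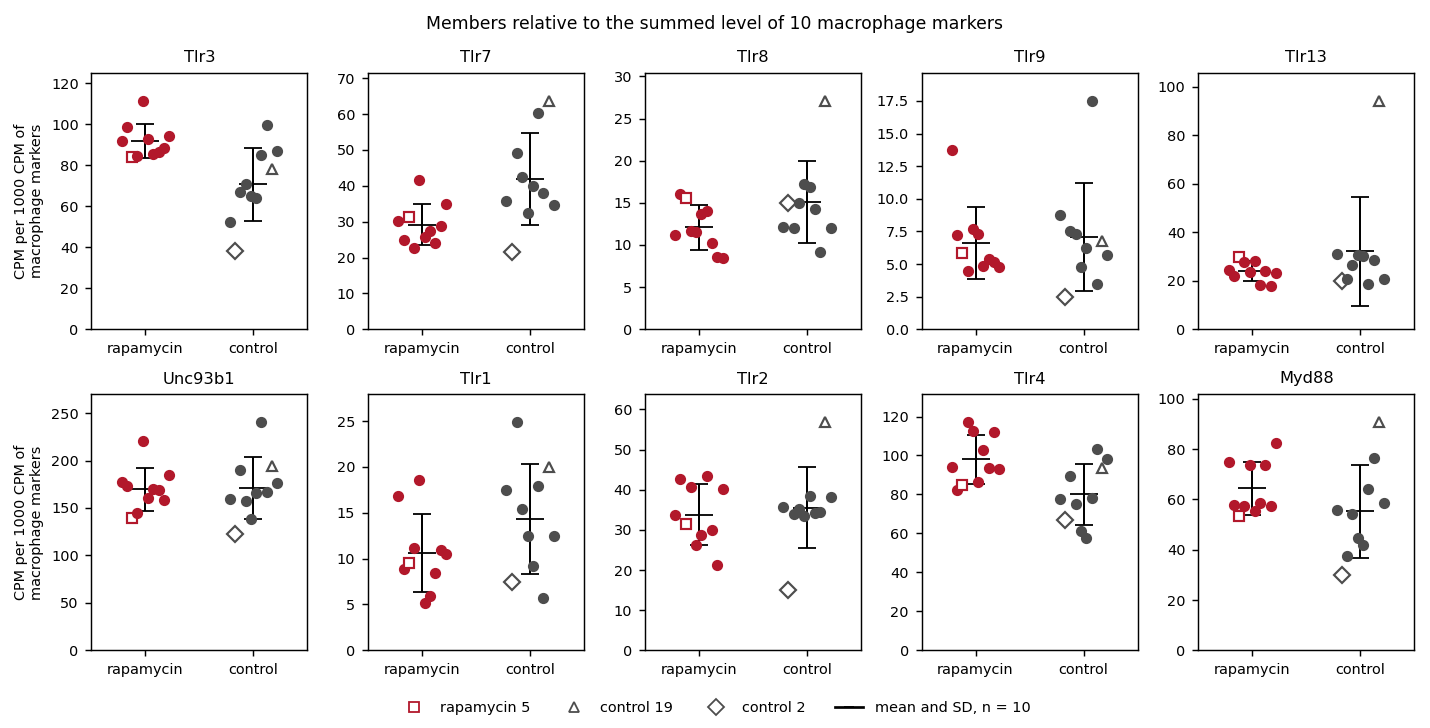
Each gene's normalised CPM per 1000 CPM of 10 summed macrophage markers (vertical axis), 1 point per heart, with mean and SD by diet. Tlr7 averages 29.2 with rapamycin and 41.8 in controls, Unc93b1 169.7 with rapamycin and 171 in controls, and Tlr3 91.8 with rapamycin and 70.6 in controls.

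Variation between hearts on the same diet was described after subtracting each group's mean of log2 CPM, over the 19 libraries other than control 19. These libraries share the tissue's make-up and their depth, so the coefficients are descriptions without a test. Tlr8 varied with the mean of the macrophage markers (Pearson's r 0.89, Spearman's rho 0.76), as did Tlr13 (r 0.79) and Unc93b1 (r 0.79). Tlr4 (r 0.56, rho 0.32) and Tlr7 (r 0.53, rho 0.41) followed at lower values, and Tlr3, Tlr2, Tlr1, Tlr9 and Myd88 had r between 0.26 and 0.42. Tlr7 was as close to the endothelial markers (r 0.61) as to those of macrophages, and Tlr3 was closer to the endothelial ones (0.57). Tlr4 also went with fibroblast markers (0.53) and against cardiomyocyte markers (-0.63). Tlr9 had its highest value with the B and plasma cell markers (0.47), at counts too low to read it further.

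**Figure D5:**
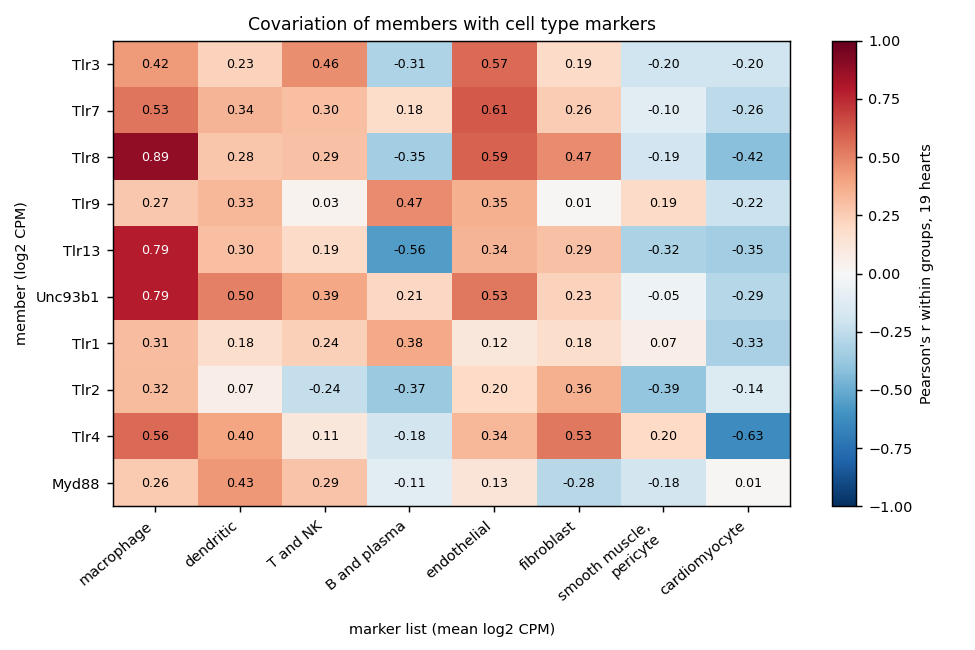
Pearson's r between each gene's log2 CPM (rows) and the mean log2 CPM of each marker list (columns) after removal of the group means, over 19 hearts. The macrophage column holds the highest values, 0.89 for Tlr8 and 0.79 for Tlr13 and Unc93b1.

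Among the 9 members with at least 2 CPM, the 36 pairs had a median r of 0.29, or 0.49 with control 19 kept, and a median rho of 0.17. Pearson's r ran between -0.12 and 0.78. The closest pairs by r were Tlr7 with Unc93b1 (0.78), Tlr8 with Tlr13 (0.75), Tlr8 with Unc93b1 (0.66) and Tlr7 with Tlr1 (0.58). Their rho was 0.74, 0.73, 0.46 and 0.57 in that order. Tlr8 with the surface receptor Tlr2 had a rho of 0.59 and an r of 0.52. Of 13033 other genes, the one nearest to Tlr8 was the macrophage adhesion receptor Emr1 (r 0.90), followed by Slc9a9. Tlr13 was nearest to Csf1r, the receptor for the macrophage growth factor (0.87), then to the collagen cross-linking enzyme Lox and to the complement subunit C1qb. With control 19 kept, r was 0.69 for Csf1r, 0.88 for Lox and 0.44 for C1qb. Tlr7 was nearest to Lyn, a Src-family kinase of blood cells (0.84), and Unc93b1 to the phosphatase Ptpre (0.87), the kinase Prkcd and Cybb, the catalytic subunit of the phagocyte oxidase. After Lyn, Tlr7 was nearest to Marcks and Trp53, and its r with Trp53 was 0.82, or 0.39 with control 19 kept. The nearest genes of the remaining members are not macrophage genes by name. Tlr3 was nearest to Csgalnact1 (0.79), Tlr1 to A630001G21Rik (0.86), Tlr2 to Ocrl (0.81), Tlr4 to Eif1a (0.82) and Myd88 to Elavl1 (0.84). Each nearest gene has the highest of 13033 coefficients over 19 hearts, and a search of that size gives high values by chance too.

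The other Toll-like receptors were scarce, but not all scarcer than the members. Tlr5 averaged more than Tlr9, which had 1.39 CPM with rapamycin and 2.14 CPM in controls. Tlr5, the flagellin receptor, averaged 2.46 ± 0.90 CPM with rapamycin and 3.33 ± 1.06 CPM in controls (adjusted p = 0.237, edgeR), and Tlr6, which pairs with Tlr2 for diacylated lipoproteins, 0.833 ± 0.302 CPM with rapamycin and 1.52 ± 0.88 CPM in controls (adjusted p = 0.0774, edgeR). The log2 folds were -0.42 ± 0.21 for Tlr5 and -0.85 ± 0.27 for Tlr6, or -0.33 and -0.59 without control 19. Counts of Tlr11 and Tlr12 were too low to be tested.

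Of 97 further genes of the pathway, 85 were tested, and 8 fell and 1 rose at an adjusted p under 0.05, which is 10.6% of those tested. Over all genes 3.36% passed, 2.68% lower and 0.689% higher. Their median log2 fold was -0.17, beside -0.01 over all genes. The counts were the same without control 19. As the lists were chosen with earlier results of these data known, nothing is read from the difference between these shares. Among 6 coreceptors 2 fell, and these form 1 complex: the receptor-like Cd180 (log2 fold -1.06 ± 0.26, adjusted p = 0.0282, edgeR) and its partner Ly86, also called MD-1 (-0.93 ± 0.19, adjusted p = 0.0158). Ly86 had a median of 6.98 CPM with rapamycin (range 6.02 to 14.2) and of 14.2 CPM in controls (range 8.54 to 25.7). The lipopolysaccharide coreceptors Cd14 (9.03 ± 1.69 CPM with rapamycin and 11.3 ± 5.41 in controls) and Ly96 (5.17 ± 1.16 CPM with rapamycin and 5.76 ± 1.16 in controls) did not pass.

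Among 10 genes of receptor transport and cleavage, 2 cathepsins fell, proteases that trim endosomal receptors. Ctss averaged 37.6 ± 13.2 CPM with rapamycin and 87.1 ± 53.0 CPM in controls, a log2 fold of -1.21 ± 0.27 (adjusted p = 0.0202, edgeR), with 9 of 10 rapamycin hearts below the lowest control. Ctsl averaged 169 ± 10.3 CPM with rapamycin and 206 ± 22.8 CPM in controls, a smaller fold of -0.29 ± 0.06 (adjusted p = 0.0176). The folding partners Hsp90b1 (-0.20 ± 0.08) and Cnpy3 (-0.14 ± 0.07) did not pass. Among 6 genes that process nucleic acids in the lysosome, the exonuclease Pld4 fell (-0.64 ± 0.16, adjusted p = 0.0316, edgeR). Its relative Pld3 had a log2 fold of -0.23 ± 0.06 and did not pass (adjusted p = 0.0524, edgeR).

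Downstream of the receptors the genes that passed were counted by list. Over all genes 3.36% passed in either direction, and nothing is read from these counts. None of 4 tested adaptors besides Myd88, none of 9 transcription factors and none of 8 negative regulators did, and among 17 kinases and ligases 2 fell. These were Ikbke, a kinase upstream of interferon regulatory factors (6.18 ± 1.25 CPM with rapamycin and 11.3 ± 3.21 CPM in controls, log2 fold -0.87 ± 0.17, adjusted p = 0.0111, edgeR), and Btk, a kinase of B and myeloid cells (-0.98 ± 0.25, adjusted p = 0.0334). Irf5, which acts below Tlr7 and Tlr9, had a log2 fold of -0.50 ± 0.16 (adjusted p = 0.0804), and Irf7 one of -0.34 ± 0.23 (adjusted p = 0.397). The core kinase Irak4 (-0.35 ± 0.13) and the ligase Traf6 (-0.04 ± 0.07) did not pass either.

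Of 5 receptors of the interleukin-1 family, which share Myd88, Il18r1 fell, at 2.75 ± 0.95 CPM with rapamycin and 14.0 ± 19.1 CPM in controls (log2 fold -2.34 ± 0.51, adjusted p = 0.0200, edgeR). Control 19 held 63.0 CPM of it, and without that library the fold was -1.63 and Il18r1 still passed. None of 12 other sensors passed, among them Zbp1 (adjusted p = 0.0790), Dhx58 (0.0713) and Tmem173, the adaptor STING (0.0828), all by edgeR. Of 6 tested target genes 1 rose: Cxcl1, a neutrophil-attracting chemokine, had 9.08 ± 4.05 CPM with rapamycin and 3.37 ± 1.75 CPM in controls (log2 fold 1.43 ± 0.29, adjusted p = 0.0155, edgeR). The cytokine Il1b had a log2 fold of -1.71 ± 0.72 (adjusted p = 0.173, edgeR), which was 0.24 without control 19, where it stood at 82.3 CPM.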

How the data were processed

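The poly(A) fraction of heart RNA went through paired-end sequencing (50 bp, Illumina HiSeq 2000), and reads were mapped to unique sites of MGSCv37 with at most 2 mismatches, per the series' design text. No source used here names the aligner, the counter or the strand setting, and the submitters' processing notes list edgeR only. The authors deposited raw read counts for 34291 gene symbols and CPM for 700 genes. The rule behind those 700 is not stated, and 6 of the 10 genes described are among them (not Tlr3, Tlr9, Tlr4 and Myd88). The deposited CPM are the counts divided by each column total and were not tested.

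Groups come from the titles. The column of 1 rapamycin library lacks a letter of its title and was matched by number. The design text speaks of 10 mice a group, no pair of libraries within a group agreed within sampling noise (chi-square per degree of freedom at least 5.55 over 90 pairs), and no batch is labelled.

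The counts were analysed with edgeR 4.0.16 (R 4.3.3). Its default expression filter kept 13940 genes, which were scaled by TMM and compared between rapamycin and control by the quasi-likelihood F-test, without covariates and with Benjamini-Hochberg adjustment. A gene passed, or was called, at an adjusted p under 0.05. Folds are log2 of rapamycin over control, each with a standard error equal to its size over the root of F. On simulated data with 10 libraries a group and 13877 genes, 60% of genes changed by log2 0.4 and 96% of those changed by 0.8 were recovered. These shares belong to simulated counts and can overstate recovery in the hearts, where some libraries stood apart from their group. In the hearts Tlr13, with a log2 fold of -1.03, and Tlr6, with one of -0.85, did not pass. Log2 CPM used a prior count of 2. Lengths per kb are exon unions of GENCODE for GRCm38, another build than the authors'. The genes and lists were chosen with earlier results of these data known. The named genes are all members, the other Toll-like receptors, every called gene and the 3 smallest p of each pathway list, the 3 genes most like each member of at least 2 CPM, and 6 markers. Not all of these are printed, and Irak4, Traf6, Irf7, Hsp90b1, Cnpy3, Cd14 and Ly96 were named after their values were seen. Alternatives were each library left out, 4 libraries with lung transcripts left out, other scalings, no filter and DESeq2 1.42.0. Counting error is larger for genes with few counts per library.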

Additional observations from a re-analysis of the deposited data

Results flagged for a closer look

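In 37 of 112 groups of 10 hearts the highest library stood apart from the other 9. Its gap to the next library, over the whole range, was then above Dixon's critical value. Chance flags about 1 in 20 where values are normally distributed. The values here were CPM, sums and ratios without a log scale, for which chance can flag more. Control 19 was the library that stood apart 15 times, rapamycin 5 13 times and control 2 5 times. Genes that vary together give flags that are not independent. Among the members, rapamycin 5 stood apart for Tlr7 (9.75 CPM, next 7.25) and Tlr8 (4.84, next 3.28) and for the summed endosomal receptors (51.7, next 40.1). Control 19 stood apart for Tlr7 (22.8, next 15.4), Tlr13 (33.7, next 10.9), Tlr2 (20.4, next 13.4), Myd88 (32.5, next 17.6) and the summed endosomal receptors (96.6, next 54.8). For Tlr9 rapamycin 3 (2.78) and control 16 (4.48) stood apart.

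Control 19 stood apart also for Tlr6 (3.88 CPM), Tirap (17.8), Tnfaip3 (16.1), Il18r1 (63.0), Il18rap (14.1), Il1rap (11.4), Il1b (82.3), Ccl5 (21.1), Cd14 (24.5) and Pecam1 (359). Rapamycin 5 did so for Ly86 (14.2), Ctss (73.9), Irf5 (14.2), Irf8 (9.68), Tmem173 (16.9), Cd14 (13.2), Cd68 (11.7), Csf1r (75.4), Mrc1 (81.6) and the summed macrophage markers (310.2). Control 2 did so for Ticam2 (5.21), Cd68 (24.6), Emr1 (64.0), Mrc1 (174) and the summed macrophage markers (544). Cd180 was highest in control 16 (11.6) and Zbp1 in rapamycin 14 (15.4).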

How the results depend on the processing

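The 10 genes had log2 folds below 0 in all 20 fits that left out 1 library and in the other 5 settings. Leaving out 1 library moved the number of them called between 2 and 6 (5 with all libraries), the median fold of the endosomal genes between -0.88 and -0.60 and that of the surface receptors between -0.71 and -0.50. The lowest number came without rapamycin 4, 6, 9, 12, 15 or 18 or without control 7, and the highest without rapamycin 5 or control 16, 17 or 20. Tlr7 and Unc93b1 were called in all 20 such fits, Tlr1 in 13, Tlr2 in 7 and Tlr8 in 5. Over the same fits the pathway genes called lower numbered 5 to 15 and those called higher 1 to 1, and all genes called numbered 142 to 594 lower and 23 to 197 higher. Cd180 was lost without rapamycin 4, 6, 12, 15 or 18, Pld4 and Btk also without rapamycin 9, control 2 or control 7, and Btk also without rapamycin 14. Without the 4 libraries with lung transcripts (rapamycin 15 and controls 1, 19 and 20), 192 genes were called lower and 2 of the 10 genes were called. Scaling by library totals alone moved the median fold of all genes to -0.13, with 1284 genes called lower, 48 higher and 25 pathway genes lower. Without the expression filter 59 genes were called higher and 3 of the 10. DESeq2 called 701 genes lower, 332 higher and 13 pathway genes lower. Il1b ran between -2.0 (without rapamycin 5) and 0.24 (without control 19), and turned to 0.34 without the lung libraries and 0.24 with DESeq2, and Tollip to -0.024 with library totals. The cause of these shifts was not tested. No paired analysis was possible because each library number occurs in 1 group only.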
